A study of Mus musculus with 7 samples.

Results

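A set of 10 enzyme genes that build serine, proline and folate-bound carbon units were followed in adult mouse hearts that had lost Brg1 and Brm, the alternative ATPase subunits of the SWI/SNF chromatin remodelling complex. The genes were Phgdh, Psat1 and Psph for serine, Shmt1, Shmt2, Mthfd1, Mthfd1l and Mthfd2 for the folate cycle, and Aldh18a1 and Pycr1 for proline. Every non-control probe carrying 1 of these names on the array was taken, which gave 18 probes for the 10 genes, among 56605 distinct probes. Of the 18 probes, 15 were well above background on at least 3 arrays and were tested. Each of the 10 genes had such a probe, and the brightest one stands for the gene among 22976 genes tested.

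RNA came from hearts of adult female mice, 7 samples with 1 array each. The 3 wild type samples (labelled Wild Type_181, Wild Type_183 and Wild Type_189) carried no transgene (NTg) and received tamoxifen. In the knockout group were 4 samples, Mutant_175, then Mutant_182, Mutant_187 and Mutant_188, from transgenic (Tg) Brm null mice with the MHC Cre-ERT transgene, in which tamoxifen induced deletion of Brg1. Both groups had therefore been given tamoxifen, while the Cre transgene, the loss of Brm and the loss of Brg1 came together in the knockout group, so their parts cannot be told apart. The sources used here do not give the strain, the time after tamoxifen or the Brm genotype of the wild type mice. The MHC promoter drives the Cre in cardiomyocytes, so other cells of the heart keep Brg1 while lacking Brm.

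Serine is made from a glycolytic intermediate by PHGDH, PSAT1 and PSPH in turn. SHMT enzymes then split serine into glycine and a carbon unit carried on folate, and the MTHFD enzymes oxidise or reduce that unit, in mitochondria and in the cytosol, so that formate from mitochondria can feed purine and thymidylate synthesis. Proline is made from glutamate by ALDH18A1 and the reductase PYCR1. The cytosolic enzymes of serine synthesis and the mitochondrial folate and proline enzymes are known as a group that stressed hearts and muscles with failing mitochondria switch on.

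Of the 10 genes, 6 were higher in knockout hearts, 0 were lower and 4 did not pass the test (limma, adjusted p under 0.05 over all genes). Over all genes tested, 42.1% passed, 16.3% as higher and 25.8% as lower. Higher genes thus made up 38.7% of calls, a share that became 49.4% when the percentile was taken over probes detected throughout and 83.3% with spike-in scaling. The median log2 fold change of the 10 was 1.40, against -0.12 over all genes. Pycr1 passed the filter on dim probes only through the knockout arrays, where it is bright, so it had to differ; of the other 9 genes, 5 were higher, with a median of 1.01. Among these 5, Psat1 rose most, then Mthfd2, Mthfd1l, Phgdh and Aldh18a1, and the rise of Pycr1 has only a lower bound, while Psph, Shmt1, Shmt2 and Mthfd1 had fold changes between -0.26 and 0.06 on the log2 scale. Values of the groups did not overlap for 8 of the 10 genes, 6 higher and 2 lower in the knockout hearts, and groups did not overlap for 51.1% of all genes. The direction of the 6 risers was the same under each scaling tried. With scaling on spike-in RNA, which raised the median of all genes to 0.44, Psph and Shmt1 also passed as higher, at 0.63 and 0.59 (limma adjusted p of 0.039 and 0.015), and the values of Shmt2 and Mthfd1 changed sign.

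Signals below are given as a percent of the 75th percentile of that array, the scale on which the arrays were compared, in the order of the labels above. A percent can be set against the same probe on another array and not against another probe. Because bulk tissue was measured, fewer cells of a type and less RNA in each cell cannot be told apart.

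**Figure D1:**
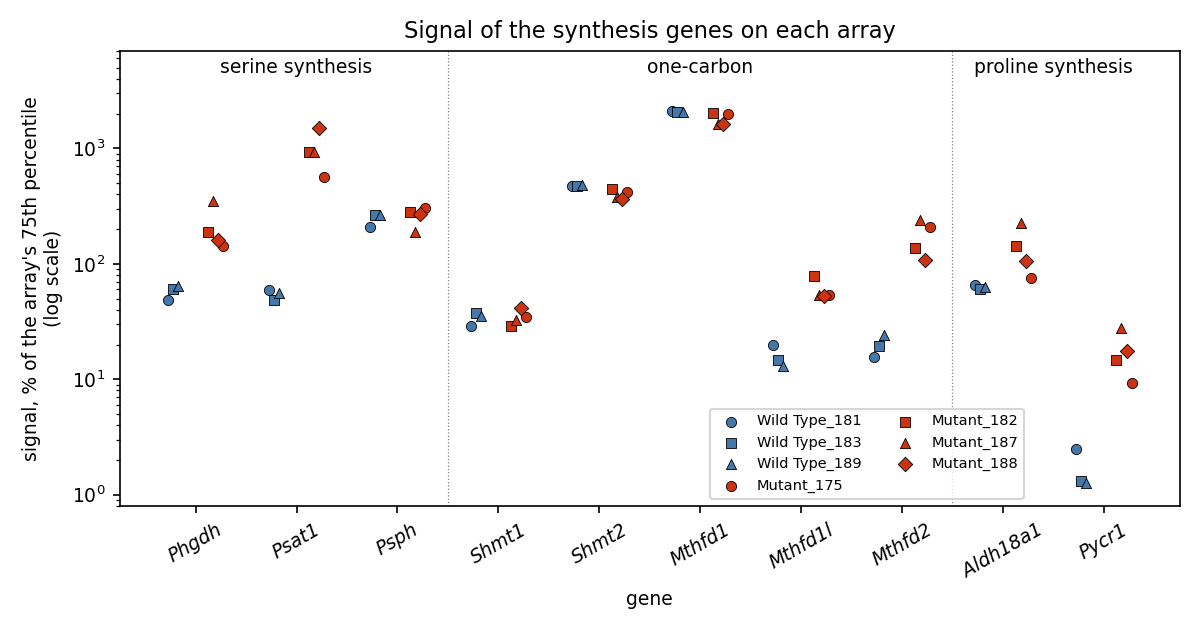
Signal of the 10 genes on each of the 7 arrays, as a percent of the array's 75th percentile on a log axis, with wild type arrays in blue and knockout arrays in red. Red points lie above all blue points for Phgdh, Psat1, Mthfd1l, Mthfd2, Aldh18a1 and Pycr1, and below all of them for Shmt2 and Mthfd1.

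In serine synthesis, the first and the middle enzyme rose and the last did not pass the test. Psat1 encodes the aminotransferase of the middle step. Its signal was 59.3%, 48.1% and 56.1% on the wild type arrays and 562%, 932%, 933% and 1502% on the knockout arrays. Each knockout value was several times the highest wild type value. The mean went from 54.5% ± 5.74 (SD, n = 3) to 982% ± 388 (SD, n = 4), a log2 fold change of 4.09 with a standard error of 0.30 (17.1-fold, limma adjusted p = 9.2e-05), which ranked 63 among the rises of the 22976 genes. Over all probes tested, 16.5% passed as higher and 24% as lower. Another Psat1 probe, from a different place in the gene, gave 3.36%, 4.21% and 2.76% on the wild type arrays and 19.4%, 31.8%, 33.2% and 56.5% on the knockout arrays. Its log2 fold change was 3.27 ± 0.34 (SE, limma adjusted p = 0.00037), or 1.82 with normexp background correction, and both probes put Mutant_175 lowest and Mutant_188 highest. The remaining Psat1 probe was not well above background on any array. The bright probe lies at chr19:15979622-15979681 and the other at chr19:15991586-15991645, both on the minus strand of mm9. The first 30 bases of the bright probe and all 60 of the other are shown because the rise of the gene rests on them.
Psat1 bright probe, first bases: tgttcatgtatcagtgttttcaatcgactg
Psat1 other probe: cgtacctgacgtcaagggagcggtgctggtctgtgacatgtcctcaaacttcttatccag

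Phgdh encodes the dehydrogenase that commits the glycolytic intermediate to serine. The Phgdh signal was 48.2%, 59.9% and 64.2% in wild type hearts and 141%, 188.9%, 351% and 160% in knockout hearts. The groups were separate, and Mutant_187 stood highest. The log2 fold change was 1.79 ± 0.31 (SE, limma adjusted p = 0.0033), or 3.45-fold, on a single probe at chr3:98117098-98117157 (mm9). Psph encodes the phosphatase that releases free serine. Its signal was 210%, 264% and 264% in wild type hearts and 302%, 279%, 187.7% and 268% in knockout hearts. The groups overlapped, with knockout hearts on both sides of the wild type ones. The fold change of Psph was 0.06 ± 0.19 (SE, log2, limma adjusted p = 0.82), with a 95% confidence interval of -0.38 to 0.50.

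In the folate cycle, the mitochondrial genes Mthfd2 and Mthfd1l rose, and neither hydroxymethyltransferase nor the cytosolic Mthfd1 passed the test. Mthfd2 encodes the mitochondrial dehydrogenase and cyclohydrolase that is abundant in embryos and tumours and scarce in most adult tissue. Its signal was 15.5%, 19.5% and 24.03% in wild type hearts and 210%, 137%, 241% and 107.3% in knockout hearts. The lowest knockout value was above the highest wild type value by a wide margin. The mean rose from 19.7% ± 4.26 (SD, n = 3) to 174% ± 62.0 (SD, n = 4), a log2 fold change of 3.09 ± 0.30 (SE, limma adjusted p = 0.00028). A neighbouring probe of Mthfd2 gave 12.3%, 18.7% and 21.8% against 174%, 112%, 157% and 91.6%, with a log2 fold change of 2.92 ± 0.28 (SE, limma adjusted p = 0.00028). The probes lie at chr6:83256518-83256577 and chr6:83255861-83255920 on mm9, on the minus strand.

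Mthfd1l encodes the mitochondrial ligase that frees formate for export to the cytosol. Its signal was 19.8%, 14.8% and 13.0% in wild type hearts and 53.1%, 78.3%, 53.8% and 52.5% in knockout hearts. Knockout values of 3 hearts lay within a narrow span, with Mutant_182 above them. The log2 fold change was 1.90 ± 0.21 (SE, limma adjusted p = 0.00042), or 3.74-fold. The other Mthfd1l probe was not well above background on any array.

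Mthfd1 encodes the cytosolic enzyme that joins the activities split between MTHFD2 and MTHFD1L in mitochondria. The Mthfd1 signal was 2125%, 2077% and 2068% in wild type hearts and 1971%, 2006%, 1620% and 1627% in knockout hearts. All 4 knockout values were below the wild type ones, yet the fold change of -0.22 ± 0.12 (SE, log2, limma adjusted p = 0.20) did not pass the test. A fainter Mthfd1 probe overlapped between groups, at 571%, 713% and 656% against 604%, 525%, 488% and 731%, with a log2 fold change of -0.15 ± 0.17 (SE, limma adjusted p = 0.51).

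Shmt2, the mitochondrial hydroxymethyltransferase gene, gave 476%, 475% and 482% in wild type hearts and 415%, 440%, 379% and 366% in knockout hearts. Knockout values were again all below the wild type ones, by a small amount. The log2 fold change was -0.26 ± 0.11 (SE, limma adjusted p = 0.096). When arrays were weighted by their quality, the same value passed (limma adjusted p = 0.048). Another Shmt2 probe, with signals under 10% on every array, gave -0.13 ± 0.15 (SE, log2, limma adjusted p = 0.53), and its groups overlapped.

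Shmt1, the cytosolic counterpart, gave results that depended on the probe. The brighter Shmt1 probe gave 28.7%, 37.2% and 35.2% in wild type hearts and 34.5%, 29.0%, 32.9% and 41.2% in knockout hearts. The groups overlapped, and the log2 fold change was 0.03 ± 0.16 (SE, limma adjusted p = 0.91). The other Shmt1 probe gave 17.2%, 21.8% and 19.6% against 42.3%, 25.96%, 25.2% and 29.7%. These groups did not overlap, with Mutant_175 highest, and its log2 fold change was 0.63 ± 0.20 (SE, limma adjusted p = 0.041 over all probes tested). That call was lost without any one of Wild Type_181, Wild Type_183, Wild Type_189 and Mutant_188, with adjusted p between 0.070 and 0.13. The brighter probe lies at chr11:60620453-60620512 and the other at chr11:60603099-60603158, both on the minus strand of mm9. Both Shmt1 probes are shown because they differ in what they report.
Shmt1 brighter probe: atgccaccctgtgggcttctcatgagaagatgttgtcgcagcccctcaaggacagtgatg
Shmt1 other probe: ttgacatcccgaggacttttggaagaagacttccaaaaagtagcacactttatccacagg

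In proline synthesis, both genes were called higher, Pycr1 with a bound and Aldh18a1 close to the threshold. Pycr1 encodes the mitochondrial reductase of the last step. Its signal was 2.502%, 1.31% and 1.27% in wild type hearts and 9.32%, 14.7%, 27.6% and 17.7% in knockout hearts. The Pycr1 probe was well above background on 0 of 3 wild type and 4 of 4 knockout arrays, so the rise is given as a bound of at least 5.94-fold (limma adjusted p = 0.00064, for a gene tested only because of its knockout signal). The bound sets the knockout mean, on the log2 scale, against the lowest signal called above background on each wild type array. With normexp background correction the fitted log2 fold change of Pycr1 was 1.28, which lies under that bound (limma adjusted p = 0.0024). Another Pycr1 probe was well above background on 1 knockout array and was not tested. It gave 1.13%, 0.77% and 0.90% in wild type hearts and 2.75%, 1.13%, 1.35% and 3.18% in knockout hearts, so the bound rests on a single probe. Aldh18a1 encodes the mitochondrial synthase that turns glutamate into the precursor of both proline and ornithine. Its signal was 65.4%, 60.3% and 62.8% in wild type hearts and 74.99%, 144%, 224% and 105% in knockout hearts. The wild type hearts lay close together, and Mutant_175 was only a little above them. The log2 fold change of Aldh18a1 was 1.01 ± 0.34 (SE, limma adjusted p = 0.047). Leaving out any one of Wild Type_181, Wild Type_183, Wild Type_189, Mutant_182 or Mutant_188 ended the call, with adjusted p between 0.062 and 0.12, and so did testing all probes without the filter on dim ones (adjusted p = 0.080).

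The 4 knockout hearts did not keep a single order across the genes. Mutant_175 was the lowest knockout heart for 4 of the 10 genes and the highest for 1, and Mutant_187 was the highest for 4. Mutant_182 was the highest for 3 and Mutant_188 for 2. For Psat1, Phgdh, Aldh18a1 and Pycr1, Mutant_175 gave the lowest knockout signal. For Mthfd2, Mutant_175 was the next to highest.

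By compartment, 4 of 5 mitochondrial enzyme genes and 2 of 5 cytosolic ones were called higher, or 3 of 4 mitochondrial ones without Pycr1. Median log2 fold changes were 1.90 for Shmt2, Mthfd1l, Mthfd2, Aldh18a1 and Pycr1, and 0.06 for Phgdh, Psat1, Psph, Shmt1 and Mthfd1; without Pycr1 the mitochondrial median was 1.45. The compartments were mixed in their extremes, since the cytosolic Psat1 rose most and the mitochondrial Shmt2 had the lowest value. Within each array, the median mitochondrial change minus the median cytosolic change, both from the wild type mean, was 1.46, 2.14, 1.86 and 1.45 in the knockout hearts and 0.28, -0.13 and -0.07 in the wild type hearts, on the log2 scale. These values include Pycr1, which passed the filter only through the knockout arrays, so part of the separation was fixed in advance. The score of each array was not computed without Pycr1. No test was made of this score, since enzymes are not replicates and the genes were chosen with results known.

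**Figure D2:**
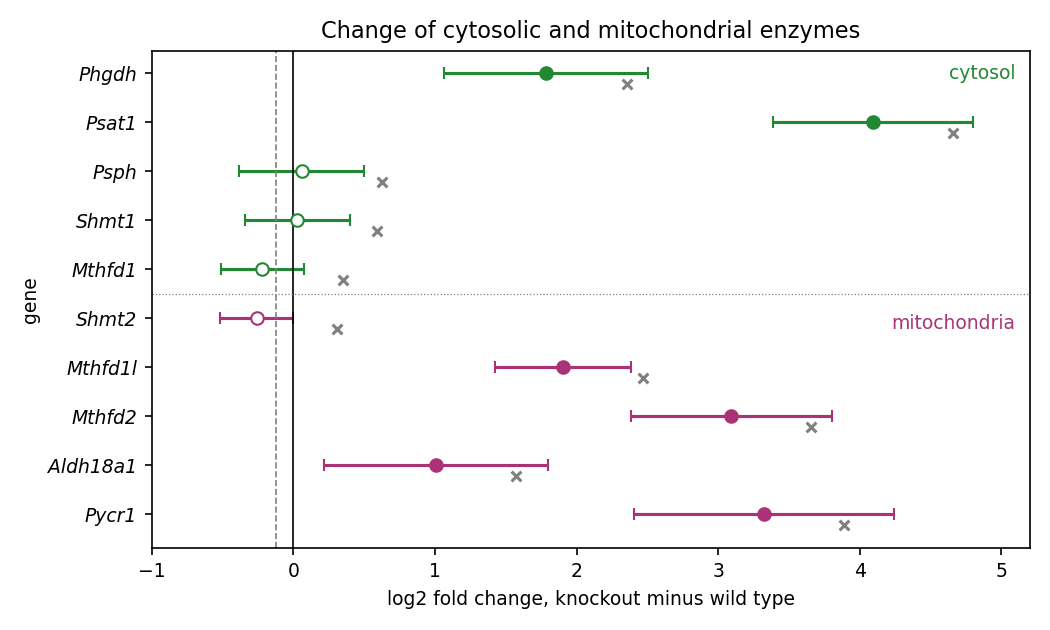
Log2 fold change of each gene, knockout minus wild type, with cytosolic enzymes in green and mitochondrial ones in purple. Bars are 95% confidence intervals, filled circles passed the test, crosses give the value with spike-in scaling, and the dashed line is the median of all genes (-0.12). The 4 filled purple circles lie between 1.01 and 3.32, and the 2 filled green ones at 1.79 and 4.09. The value of 3.32 for Pycr1 rests on wild type signals not well above background.

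Enzymes of the same step in different compartments were compared within each array, where array scaling cancels. The ratio of Mthfd2 to Mthfd1 rose by 3.31 on the log2 scale, with knockout hearts between 2.83 and 4.00 and wild type hearts between -0.34 and 0.32 about their mean (exact two-sided permutation p = 0.029 over 35 splits, 0.043 adjusted over 3 pairs). The ratio of Mthfd1l to Mthfd1 rose by 2.12, with knockout hearts between 1.85 and 2.38 and wild type hearts between -0.25 and 0.32 (exact two-sided permutation p = 0.029, adjusted p = 0.043). A value of 0.029 is the smallest that 3 against 4 arrays allow, and with any 1 array left out the adjusted p could not pass 0.05. The ratio of Shmt2 to Shmt1 changed by -0.29, with knockout hearts between -0.68 and 0.09 and wild type hearts between -0.16 and 0.22 (exact two-sided permutation p = 0.29, adjusted p = 0.29). That ratio rests on the brighter Shmt1 probe. The other Shmt1 probe was higher in knockout hearts, by 0.63, and a ratio with it alone was not tested. Over the alternatives the change lay between -0.52 and -0.14 (exact permutation, adjusted p between 0.086 and 0.60). The genes of these pairs were chosen with results known as well, so the p-values are not independent support.

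**Figure D3:**
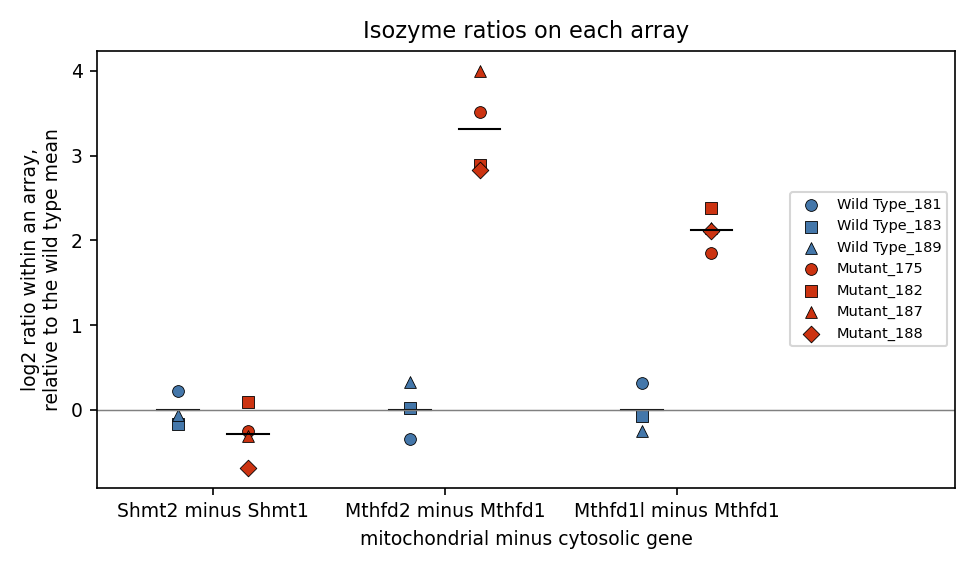
Log2 ratio of the mitochondrial to the cytosolic gene within each array, relative to the wild type mean, for 3 pairs; blue symbols are wild type arrays, red symbols knockout arrays, and short lines group means. Red symbols lie at 2.83 to 4.00 for Mthfd2 minus Mthfd1 and at 1.85 to 2.38 for Mthfd1l minus Mthfd1, above all blue ones. The groups overlap for Shmt2 minus Shmt1, drawn with the brighter Shmt1 probe.

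The 250 bases before the start of each gene were read from RefSeq promoter sequences (GRCm38.p6), which gave 11 windows for the 10 genes, Psat1 having a pair. They were searched on both strands for the amino acid response element TGATGNAA, the site type bound by ATF4 with its partners, for the E-box CACGTG, and for the CCAAT box. No matches overlapped one another. TGATGNAA was found in 1 of the 11 windows, that of Pycr1, at 103 to 96 bases before the start, and in 3.45% of 32851 windows of all genes. CACGTG was found in 1 window, that of Aldh18a1, at 59 to 54 bases before the start, and in 6.02% of all windows. CCAAT was found in 7 of the 11 windows and in 33.85% of all windows. Those 7 belonged to Phgdh, Psat1, Mthfd2 and Pycr1 among the genes that rose, and to Psph, Shmt1 and Mthfd1 among those that did not pass. A match describes letters in the window and is no evidence of binding. For each of the 6 genes that rose, 1 window is shown 5′ to 3′ on the gene's strand, ending at the base before the start. Matches to any of the motifs are in capitals (ATTGG is CCAAT on the opposite strand), and the window of Mthfd1l holds none. The other Psat1 window, chr19:15924623-15924872, holds none either and is not shown.
Pycr1, chr11:120643749-120643998, minus strand: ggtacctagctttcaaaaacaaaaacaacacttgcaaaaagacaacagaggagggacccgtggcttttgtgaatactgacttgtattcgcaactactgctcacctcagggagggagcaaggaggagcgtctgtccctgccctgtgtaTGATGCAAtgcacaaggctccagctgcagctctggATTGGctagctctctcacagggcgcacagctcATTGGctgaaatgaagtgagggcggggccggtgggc
Psat1, chr19:15925060-15925309, minus strand: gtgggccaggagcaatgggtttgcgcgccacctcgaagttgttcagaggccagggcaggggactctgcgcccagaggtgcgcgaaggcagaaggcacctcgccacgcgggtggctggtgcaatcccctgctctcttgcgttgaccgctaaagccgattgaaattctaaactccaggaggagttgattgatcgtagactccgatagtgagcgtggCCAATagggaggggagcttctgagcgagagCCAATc
Mthfd2, chr6:83317605-83317854, minus strand: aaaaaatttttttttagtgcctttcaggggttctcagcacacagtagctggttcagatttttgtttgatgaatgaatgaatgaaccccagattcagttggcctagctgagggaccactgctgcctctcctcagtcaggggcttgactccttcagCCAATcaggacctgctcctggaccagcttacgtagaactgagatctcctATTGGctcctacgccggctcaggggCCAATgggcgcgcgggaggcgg
Phgdh, chr3:98339970-98340219, minus strand: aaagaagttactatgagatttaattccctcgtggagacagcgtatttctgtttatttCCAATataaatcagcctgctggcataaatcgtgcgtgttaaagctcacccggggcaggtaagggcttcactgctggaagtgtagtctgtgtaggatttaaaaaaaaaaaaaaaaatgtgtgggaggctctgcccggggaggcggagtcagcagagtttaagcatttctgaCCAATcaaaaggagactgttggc
Mthfd1l, chr10:3972825-3973074, plus strand: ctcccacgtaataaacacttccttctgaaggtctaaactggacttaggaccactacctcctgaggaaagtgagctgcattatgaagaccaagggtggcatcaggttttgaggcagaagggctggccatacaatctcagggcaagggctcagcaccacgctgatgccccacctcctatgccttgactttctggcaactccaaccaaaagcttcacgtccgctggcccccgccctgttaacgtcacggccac
Aldh18a1, chr19:40588464-40588713, minus strand: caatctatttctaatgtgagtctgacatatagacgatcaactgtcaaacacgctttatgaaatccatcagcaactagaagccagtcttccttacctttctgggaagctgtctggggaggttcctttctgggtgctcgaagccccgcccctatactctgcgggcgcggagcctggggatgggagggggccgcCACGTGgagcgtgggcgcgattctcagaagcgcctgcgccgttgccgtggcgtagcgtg

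Genes that neighbour the pathway were read as lists, by counts and medians beside the 42.1% of all genes that passed. The list of serine, glycine and glutamine carriers had 11 genes tested, among them the mitochondrial folate carrier Slc25a32, which did not pass. Of the 11, 7 passed as higher and 2 as lower, and the median was 0.49 on the log2 scale. The 7 fell to 5 without Wild Type_181 or without Wild Type_183. Slc38a1, a glutamine carrier, rose by 1.40 ± 0.16 (SE, log2, limma adjusted p = 0.00056), and the glycine carrier Slc6a9 rose by 1.26 ± 0.14 (SE, limma adjusted p = 0.00043). Slc38a3, another glutamine carrier, went the other way. Its signal was 306%, 372% and 367% in wild type hearts and 39.3%, 40.6%, 16.9% and 39.7% in knockout hearts. Its log2 fold change was -3.43 ± 0.32 (SE, limma adjusted p = 0.00023), so carriers of the same amino acid moved in opposite directions.

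Of 7 tested genes that break down serine or glycine, 1 passed as higher and 4 as lower, and the median of -0.40 became 0.17 with spike-in scaling. Glycine is broken down by a mitochondrial complex whose subunits are coded by Gldc, Amt, Gcsh and Dld. Gldc, the decarboxylase subunit, was at 4.83%, 5.93% and 5.66% in wild type hearts and 21.1%, 14.0%, 20.5% and 17.1% in knockout hearts, a log2 fold change of 1.72 ± 0.17 (SE, limma adjusted p = 0.00032), or 0.97 with normexp. The partner subunits were lower, Amt at -1.03, Gcsh at -0.59 and Dld at -1.16 (limma adjusted p of 0.0036, 0.0053 and 0.011), although Gcsh and Dld did not pass with spike-in scaling. Subunits of 1 complex thus moved in different directions on these arrays.

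Among 15 other folate genes 5 passed as higher and 4 as lower, and the median of -0.01 became 0.55 with spike-in scaling. The count of 5 fell to 3 without any one of Wild Type_181, Wild Type_183, Wild Type_189, Mutant_182 or Mutant_187. Fpgs and Ggh, which add and remove the glutamate tail of folates, were higher by 0.72 and 0.75 on the log2 scale (limma adjusted p of 0.013 and 0.0081), and the folate receptor gene Folr1 by 1.95 (limma adjusted p = 0.013), or 1.06 with normexp. Aldh1l1 and Aldh1l2, whose cytosolic and mitochondrial enzymes burn formyl groups to carbon dioxide, were lower, at -1.03 and -1.34 (limma adjusted p of 0.0019 and 0.0022), and neither passed with spike-in scaling. Aldh1l2 uses the same mitochondrial formyl-folate pool as Mthfd1l, which rose. Mtfmt, which formylates the initiator tRNA of mitochondria from that pool, was at -0.66 (limma adjusted p = 0.0031), but at 0.79 with all its probes averaged (adjusted p = 0.29). The list of Mtfmt and mitochondrial tRNA modifying genes had 0 higher and 3 lower of 5 at a median of -0.66, and 2 higher and 1 lower at a median of -0.09 with spike-in scaling. Among its genes was Mto1, which modifies the wobble base of mitochondrial tRNAs with a folate-borne carbon, at -1.29 ± 0.11 (SE, limma adjusted p = 0.00014).

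Among 13 purine synthesis genes tested 2 passed as higher and 3 as lower, and the median of -0.13 became 0.02 with quantile normalization and 0.44 with spike-in scaling. Pfas, whose enzyme acts in the middle of the purine pathway, rose by 1.13 ± 0.15 (SE, limma adjusted p = 0.0010), and Prps2, which makes the ribose donor, was lower at -1.22 ± 0.12 (SE, limma adjusted p = 0.00032). The methionine cycle and transsulfuration list had 0 higher and 5 lower of 11, with a median of -0.58. Spike-in scaling gave 1 higher and 1 lower, at a median of -0.02. The count of 5 lower became 4 without Wild Type_183 and 8 without Mutant_175. Gnmt, which spends methyl groups on glycine, was at -1.21 ± 0.13 (SE, limma adjusted p = 0.00048).

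Around proline, the genes that break it down were lower while Pycr1 and Aldh18a1 rose. Among 8 other proline and ornithine genes 1 passed as higher and 5 as lower, at a median of -0.60 (-0.04 with spike-in scaling), and the 5 fell to 3 without any one wild type heart. Aldh4a1, the dehydrogenase that finishes proline breakdown, went from 4406%, 4161% and 4128% to 1772%, 1925%, 2118% and 2094%. All knockout hearts were well below all wild type ones, and the log2 fold change was -1.10 ± 0.11 (SE, limma adjusted p = 0.00032). Prodh, which opens proline breakdown, was at -1.22 (limma adjusted p = 0.014), but did not pass with spike-in scaling or with its probes averaged (-0.19). Arg1, which makes ornithine from arginine, is the 1 higher gene, and it was tested only because of its knockout signal: it was well above background on 0 of 3 wild type and 3 of 4 knockout arrays. It was at least 3.805-fold higher (limma adjusted p = 0.0039), but its fitted log2 fold change was 1.21 with normexp, under that bound.

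Among genes that supply glutamate and glutamine, 0 of 8 passed as higher and 4 as lower, at a median of -0.35 (0.22 with spike-in scaling). Gpt, the alanine aminotransferase gene, went from 2173%, 1930% and 2164% to 172%, 169%, 173% and 176%. The knockout hearts were nearly equal, and the log2 fold change was -3.60 ± 0.10 (SE, limma adjusted p = 4.5e-06), or -1.94 with all its probes averaged. Gpt2, its mitochondrial partner, was at -1.68 ± 0.17 (SE, limma adjusted p = 3.0e-04), and the aspartate aminotransferase gene Got1 at -1.04 ± 0.20 (SE, limma adjusted p = 0.0052), which did not pass with spike-in scaling. Psat1, the aminotransferase of serine synthesis, thus rose while these 3 aminotransferase genes were lower.

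ATF4 is the factor of the amino acid and mitochondrial stress response, and Psat1, Phgdh, Mthfd2, Pycr1 and Aldh18a1 are known among its targets. Among 15 other genes of that response 5 passed as higher and 3 as lower, at a median of 0.19, and 3 passed as higher without Wild Type_181. Spike-in scaling gave 9 higher and 2 lower, at a median of 0.76. Atf4 itself was at 0.63 ± 0.15 (SE, log2, limma adjusted p = 0.014, or 0.058 without Wild Type_181). Asns, the asparagine synthetase gene, was higher by 1.04 ± 0.22 (SE, limma adjusted p = 0.0074), and the stress factor gene Nupr1 by 2.30 ± 0.18 (SE, limma adjusted p = 0.00012). Chac1, which degrades glutathione, was lower at -2.06 ± 0.19 (SE, limma adjusted p = 0.00024), as were Vldlr at -1.89 ± 0.40 (SE, limma adjusted p = 0.0077) and Cebpb at -0.94 ± 0.16 (SE, limma adjusted p = 0.0035), the last not passing with spike-in scaling. Asns and Nupr1 thus moved in the direction of Psat1 and Phgdh, and Chac1 and Vldlr in the opposite one. In these paragraphs Dld, Fpgs, Ggh, Folr1, Prodh, Atf4, Asns and Vldlr were chosen after their values were seen.

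**Figure D4:**
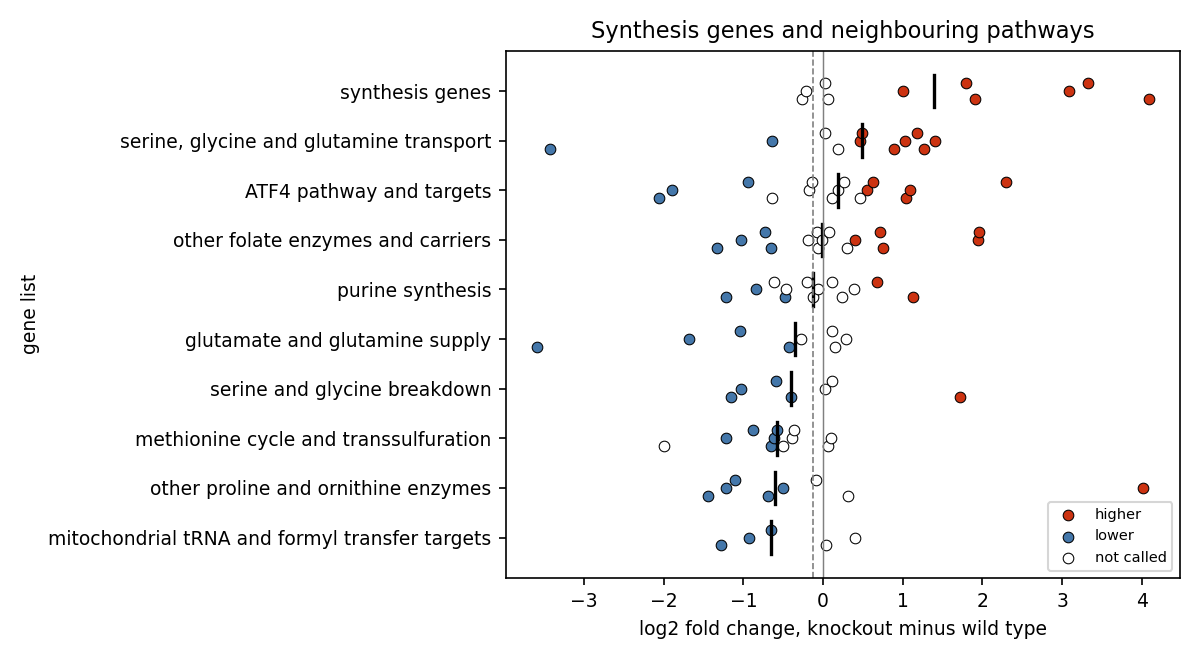
Log2 fold change, knockout minus wild type, of each gene tested in the synthesis set and in 9 lists of neighbouring genes, with genes called higher in red, lower in blue and not called in white. Short vertical lines are list medians and the dashed line is the median of all genes. The synthesis genes have a median of 1.40 and the carriers 0.49. The lists of breakdown, of methionine cycle and transsulfuration, and of other proline genes lie at -0.40, -0.58 and -0.60.

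The targeted gene and the make-up of the hearts were checked on the same arrays. Smarca4, the gene of Brg1, was at 3471%, 3277% and 3416% in wild type hearts and at 587%, 1026%, 1495% and 825% in knockout hearts, a log2 fold change of -1.87 ± 0.29 (SE, limma adjusted p = 0.0021); some signal remains in every knockout heart, and Mutant_175 had the least. The labels call the cells cardiomyocytes, but fibroblast and endothelial markers were measured on all arrays. Cardiomyocyte markers had 1 higher and 8 lower of 11 (4 lower with spike-in scaling), and their summed signal was 5028 to 5407 times the 75th percentile in wild type and 2791 to 3459 times in knockout hearts. Fibroblast markers had 8 higher and 0 lower of 10, with sums of 313 to 344 and 637 to 882, and macrophage markers 6 higher and 1 lower of 9, with sums of 41.9 to 44.0 and 55.1 to 106. Endothelial markers had 1 higher and 3 lower of 8, at a median of -0.33 (1 higher and 0 lower, at 0.24, with spike-in scaling; 1 lower without any one wild type sample), with sums of 88.2 to 90.6 and 66.9 to 104. Smooth muscle markers had 3 higher and 1 lower of 8, at a median of 0.47. Their sums of 102 to 120 and 444 to 536 were set mainly by Acta2, with a log2 fold change of 3.44. Its probe gave 4475%, 3969% and 3339% in wild type hearts and 38084%, 41476%, 43900% and 46531.5% in knockout hearts. The fitted value for Acta2 became 0.62 without Mutant_175 and 0.55 without Mutant_188, the latter not passing (limma adjusted p = 0.054). The brightest probe was chosen anew in those fits, and the signals just given could not yield such values. Another Acta2 probe with a much smaller change therefore stands for the gene there. The size of the Acta2 rise, and with it the knockout sums of this list, thus depends on the probe. Every knockout value of the probe used here was far above the wild type ones. Cell cycle genes had 3 higher and 0 lower of 10, with sums of 16.6 to 17.5 and 13.8 to 40.4 (1 higher without Wild Type_181 or Wild Type_183, 8 without Mutant_175). All 11 cardiomyocyte, all 10 fibroblast and all 8 endothelial markers were well above background on at least 3 arrays. Fibroblast and macrophage markers thus mostly moved with the synthesis genes, while cardiomyocyte markers mostly moved the other way. The part of these marker changes in the rises of the synthesis genes was not tested. All 7 arrays shared 1 slide and 1 scan, with wild type samples in one row of the slide and knockout samples in the other, so row and genotype cannot be told apart.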

How the data were processed

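Single-colour Agilent arrays (SurePrint G3 mouse, Cy3) were hybridised with total RNA from 7 heart samples, per the labels' protocols. Spots were read by Agilent Feature Extraction 10.7.3.1, and the linear intensity deposited per spot is its processed signal, background-subtracted per the file headers. Replicate spots of 1 probe were averaged, and log2 values minus each array's 75th percentile were tested with limma 3.58.1 in R 4.3.3, with Benjamini-Hochberg adjustment over genes. No spot was saturated (0 on each array), 58.1% to 63.6% of spots were well above background, and the number of arrays limits the precision. The authors' deposited value table holds linear intensity values, uncentred (array medians 45.6 to 82.6), and 99.6% of its cells lay within 0.01 of the scanner signal on the log2 scale.

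The labels do not say more than that the samples are separate, so the spread behind each p-value may be technical. Probes were named through their accession in RefSeq (32994 probes, 1535 renamed), otherwise by the deposited name. Probe coordinates are mm9, per the file headers, and promoters GRCm38.p6; an annotated exon or UTR for the probes was not used here. The members and lists were chosen with earlier results of these data known. Named genes were the members, Smarca4, up to 3 genes of smallest p per list and up to 2 bright genes per marker list; 1 list and some genes the rule names are not reported here. The fit was tested on simulated data. Alternatives changed the scaling (quantile, median, spike-in RNA, the 75th percentile of probes detected throughout), the background correction (normexp, offset 50), the filter on dim probes, the probe rule, the prior, array weights, the authors' table, and the arrays left out.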

Additional observations from a re-analysis of the deposited data

Results flagged for a closer look

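The Mthfd1l signal of Mutant_182 stood apart from the other 3 knockout hearts: the gap to its nearest neighbour was 0.939 of the group's whole range on the log2 scale, above Dixon's critical value for 4 samples. Chance alone exceeds that limit in about 1 in 20 groups. Those other 3 hearts were also above every wild type heart.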

How the results depend on the processing

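The rises of Psat1, Pycr1, Mthfd2, Mthfd1l and Phgdh kept their direction and their side of the threshold under each alternative in which they were tested; Pycr1 was not tested with the filter over all arrays (9 members tested) or without Mutant_175 and Mutant_187 together. Of all genes called, 38.7% were higher, 44.9% with quantile normalization, 49.4% when the 75th percentile was taken over probes detected throughout, and 83.3% with spike-in scaling, where 8535 genes were called higher and 1711 lower against 3749 and 5934. The mitochondrial minus cytosolic median was 1.17 with normexp, against 1.84, both with Pycr1 included. With array weights, 1 member was called lower, Shmt2. Without Mutant_175 and Mutant_187 together the MTHFD ratios were 2.86 and 2.245 (exact permutation, adjusted p = 0.15, where so few arrays cannot reach the threshold). Without 1 array at a time, they were 3.08 to 3.47 and 1.997 to 2.28 (exact permutation, adjusted p between 0.10 and 0.15), genes called higher 2658 to 4499, genes called lower 3804 (without Wild Type_183; 3883 without Wild Type_189) to 6790, Psph -0.049 to 0.21 and Shmt1 -0.086 to 0.10.

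Signs changed, none with a called value except Tnnt2 and Mtfmt, for Shmt1 with quantile normalization (-0.0055); for Shmt2 (0.31), Mthfd1 (0.35), the second Mthfd1 probe (0.41), the second Shmt2 probe (0.44), Actc1 (0.21), Tnnt2 (0.015) and Pcna (0.42) with spike-in scaling; for Actc1 (0.25), Tnnt2 (0.083) and Pcna (0.0042) with quantile normalization; for Actc1 (0.22), Tnnt2 (0.062) and Pcna (0.011) with normexp; and for Mtfmt (0.79) with its probes averaged. No paired analysis was possible because the groups share no replicate number. Pycr1 and Arg1 in wild type hearts lie below the reach of the array.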
